A study of Mus musculus with 27 samples.

Results

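The late phase of fetal brain development in the mouse strain AKR/J was followed by comparing the 3 libraries of gestational day 17 (d17) with the 3 libraries of d15. The labels for strain and day picked out these 6 of the 27 libraries of the study, and all genes of the table were compared. The study sequenced polyA-selected RNA of whole fetal brain from C57BL/6J, AKR/J and B6.Cg-Cav1tm1Mls/J (Cav1-null) mice on d12, d15 and d17, counted from the vaginal plug as day 1, with 3 libraries per strain and day. AKR/J is an inbred strain with a short life span, C57BL/6J is an inbred strain that lives longer, and Cav1-null mice lack caveolin-1, a coat protein of membrane invaginations, on a C57BL/6J background. The 6 AKR/J libraries carry no engineered allele and no treatment, dams were about 8 weeks old when timed pregnancies were set up, and all 6 fetuses were labelled female after a PCR assay. The labels do not say which fetuses shared a litter. If those of a day did, day cannot be told apart from dam and litter. The p-values measure the spread between these libraries, which may then be spread within a litter and may be partly technical.

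Between these days the mouse brain passes from the peak of neuron production to the wiring of the neurons made. Radial glia, the stem cells that line the ventricles, divide and give rise to intermediate progenitors and neurons, under control of Notch, Wnt and sonic hedgehog signals and of proneural transcription factors. Their offspring migrate outward, grow axons, and then switch on receptors, ion channels and the machinery of transmitter release, while the remaining progenitors turn to the production of astrocytes and oligodendrocyte precursors. Values are given as CPM, in which TMM factors and library totals put the read counts of these 6 libraries on 1 scale, with the libraries of a day in the order of replicates 1, 2 and 3. A gene was called DE at an adjusted p under 0.05, and each log2 fold change is d17 over d15, so that a positive value stands for a gene that was higher on d17.

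The libraries held 26363697 to 30160663 reads on genes. A pair of d15 libraries stood apart from the others of their group. The library labelled d15 replicate 3 had 103 reads of Xist, the RNA that silences an X chromosome in female cells, against 161988 and 168139 in the other d15 libraries and 159663 to 176561 on d17, and it had no reads of the Y-linked genes Ddx3y, Uty, Eif2s3y and Kdm5d, of which no library of these 6 had more than 4 reads. It also had the highest summed level of the 22 listed Hox genes, which mark the hindbrain and spinal cord (13.6, 45.6 and 235 CPM on d15 and 24.7, 51 and 127 CPM on d17). In d15 replicate 2, the summed level of connective tissue and meninges markers was 2309 CPM, against 326 and 336 CPM in the other d15 libraries and 250.4 to 331 CPM on d17. Markers of epidermis and eye and of skeletal muscle were also highest in that library. Changes of call without one of these libraries, and the larger shifts in value, are given beside the results. Brain RNA was present in all 6, as Dcx, a microtubule protein of young neurons, was at 1727, 1414 and 1859 CPM on d15 and 1929.6, 1891 and 1721 CPM on d17.

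**Figure D1:**
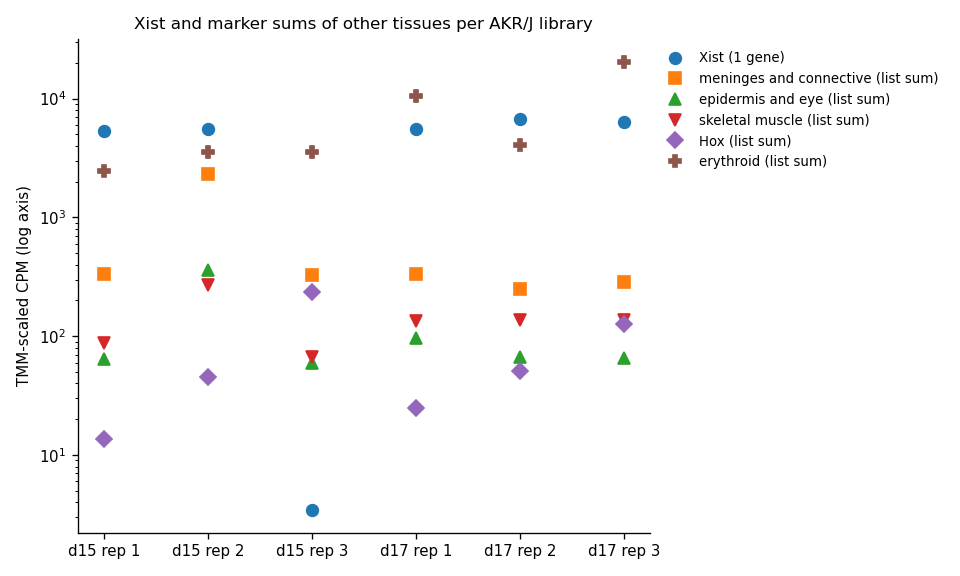
Level of Xist and summed levels of marker lists for other tissues in each AKR/J library, in TMM-scaled CPM on a log axis. Xist is at 3.44 CPM in d15 replicate 3 and at 5376 CPM or more in the other libraries, and the sums for connective tissue, epidermis and eye, and muscle are highest in d15 replicate 2.

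Of 19989 tested genes, 4409 (22.1%) were DE, with 2324 (11.6%) higher and 2085 (10.4%) lower on d17. The median absolute change of DE genes was 0.68 on the log2 scale, and 1272 DE genes changed by 1 or more on that scale (716 higher, 556 lower). The libraries of both days did not overlap for 41.6% of tested genes (21.1% higher, 20.5% lower), so that a gap between the days alone is no rare event here. Lists below are to be read against the shares of 11.6% higher and 10.4% lower. Each left-out fit named in the text lacks 1 library. Leaving out 1 library moved the count from 1576 genes without d17 replicate 2 and 1726 without d17 replicate 3 up to 4802 without d15 replicate 2.

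**Figure D2:**
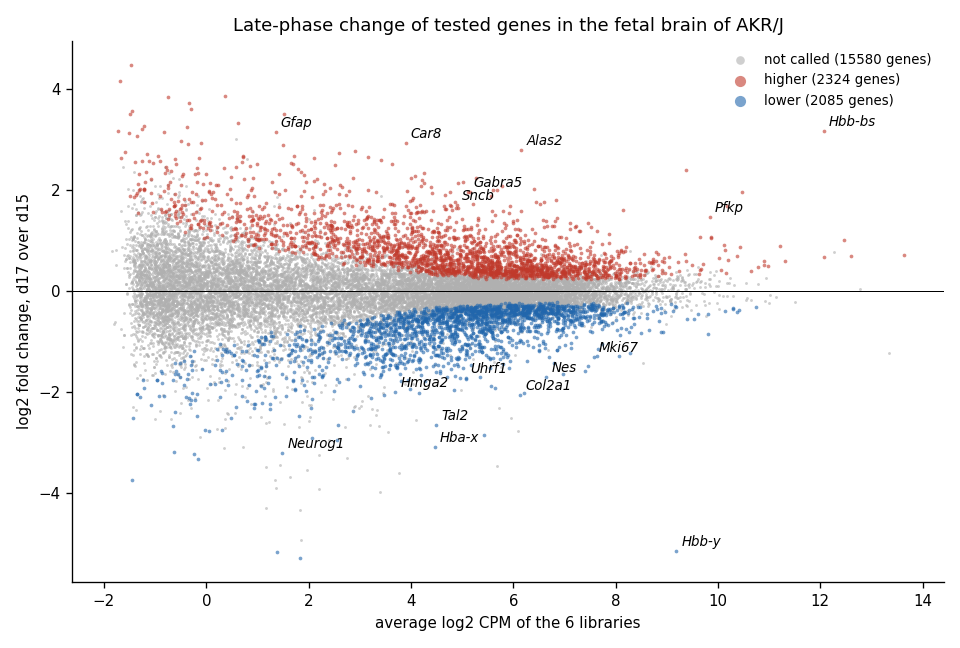
Log2 fold change of each tested gene, d17 over d15, against its average log2 CPM over the 6 libraries. Red points are the 2324 genes higher on d17, blue points the 2085 genes lower on d17 and grey points the 15580 genes that were not called. Hbb-y lies at the bottom with a change of -5.16 and Hbb-bs at the top right with 3.18.

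Above a floor of 3 on the average log2 CPM, the largest rises without overlap of the days included genes of dendrites and vesicle transport. That every d17 library was above every d15 library was a condition of the choice of these genes. Car8, which lowers the calcium release of neurons such as Purkinje cells, was at 3.92, 3.41 and 2.97 CPM on d15 and 19.8, 26.3 and 32.6 CPM on d17. The gene rose 7.64-fold in its mean (log2 fold change 2.93, SE 0.21, adjusted p = 0.000484). Gda, a guanine deaminase found in dendrites, was at 3.22, 2.89 and 1.17 CPM on d15 and 13.6, 13.9 and 18.6 CPM on d17 (log2 fold change 2.66, SE 0.35, adjusted p = 0.001898). The copine Cpne7 went from 2.40 to 4.66 CPM on d15 to 17.5 to 23.4 CPM on d17 (log2 fold change 2.51, SE 0.25, adjusted p = 0.000874). Bc1, a short noncoding RNA of dendrites, was at 3.12, 2.73 and 3.07 CPM on d15 and 8.06, 20.3 and 26.1 CPM on d17 and rose, with d17 replicate 1 the lowest of its group (log2 fold change 2.61, SE 0.39, adjusted p = 0.003099). Replicate spread in Gda and Bc1 was wide next to that of Cpne7. Mal2, a protein of vesicle transport, was at 5.08, 7.26 and 4.47 CPM on d15 and 20.4, 26.9 and 31.8 CPM on d17 (log2 fold change 2.23, SE 0.23, adjusted p = 0.00103). Ptgds, a prostaglandin synthase of meninges, choroid plexus and oligodendrocytes, was at 16.7, 17.7 and 5.77 CPM on d15 and 59, 62 and 70.04 CPM on d17, and d15 replicate 3 was the lowest library (log2 fold change 2.25, SE 0.34, adjusted p = 0.00347). Without that library the change of Ptgds was 1.89 (adjusted p = 0.001198). The long noncoding RNAs B230209E15Rik and 9130024F11Rik also rose, by 2.34 and 2.205 on the log2 scale (adjusted p = 0.001499 and 0.00222).

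Rises with the smallest p are given next, and a choice by p favours genes with little spread within a day. Adcy1 (GRCm39 chr11:7013330-7128506), a calcium-stimulated adenylyl cyclase, was at 86.9, 86.7 and 85 CPM on d15 and 199, 209 and 219.8 CPM on d17 (log2 fold change 1.28, SE 0.07, adjusted p = 0.000376). Opcml, a cell adhesion molecule of neurons, was at 27.7, 31.1 and 27.8 CPM on d15 and 83.6, 99.5 and 95.5 CPM on d17 (log2 fold change 1.68, SE 0.10, adjusted p = 0.000376). In both, the spread within a day was far below the gap between the days. Luzp2 was at 36.7, 34.9 and 35.4 CPM on d15 and 94, 112 and 113 CPM on d17 (log2 fold change 1.58, SE 0.09, adjusted p = 0.000376). The neuronal calcium sensor Caln1 and the brain proline transporter Slc6a7 rose by 1.9997 and 2.14 on the log2 scale (adjusted p = 0.000376 and 0.000376), and for both every d17 library was above every d15 library.

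On the other side, Lrp4 (GRCm39 chr2:91287797-91344248), a receptor that dampens Wnt signals and clusters proteins at synapses, had the smallest p of a fall. It was at 48.4, 48.3 and 47.1 CPM on d15 and 18.5, 14.5 and 16.7 CPM on d17 (log2 fold change -1.53, SE 0.11, adjusted p = 0.000444). Igf2bp1, an RNA-binding protein of embryonic cells, and Ube2c, Cdca2 and Nde1, which act in mitosis, followed it in the order of p. Tal2, a transcription factor of midbrain inhibitory neurons, was at 34.8, 24.5 and 57.1 CPM on d15 and 7.09, 4.76 and 6.55 CPM on d17, with d15 replicate 3 the highest (log2 fold change -2.66, SE 0.31, adjusted p = 0.00138). Its change was -2.27 (adjusted p = 0.00171) without that library. Peg12, an imprinted gene of the FRAT family of GSK3-binding proteins, was at 18.4, 15.2 and 19.8 CPM on d15 and 5.05, 5.2999 and 2.47 CPM on d17 (log2 fold change -2.06, SE 0.28, adjusted p = 0.00222). Col2a1, a collagen of cartilage and early neuroepithelium, and Serpinh1, the collagen chaperone, fell by 2.05 and 2.02 on the log2 scale. Both were highest in d15 replicate 2, at 178 and 189.7 CPM, and without it their changes were -1.57 (adjusted p = 0.000367) and -1.499 (adjusted p = 0.00274). Cnn2 and Lum, also carried by connective tissue cells, went from -1.95 and -2.86 to -0.84 (adjusted p = 0.0169) and -1.07 (adjusted p = 0.0232). Serpinh1 missed the threshold without d17 replicate 2 or 3 (adjusted p = 0.0556 and 0.0544), and Cnn2 missed the threshold without d17 replicate 1, 2 or 3 (adjusted p = 0.0833, 0.162 and 0.154). Lum missed the threshold without d17 replicate 1, 2 or 3 (adjusted p = 0.0842, 0.164 and 0.157).

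**Figure D3:**
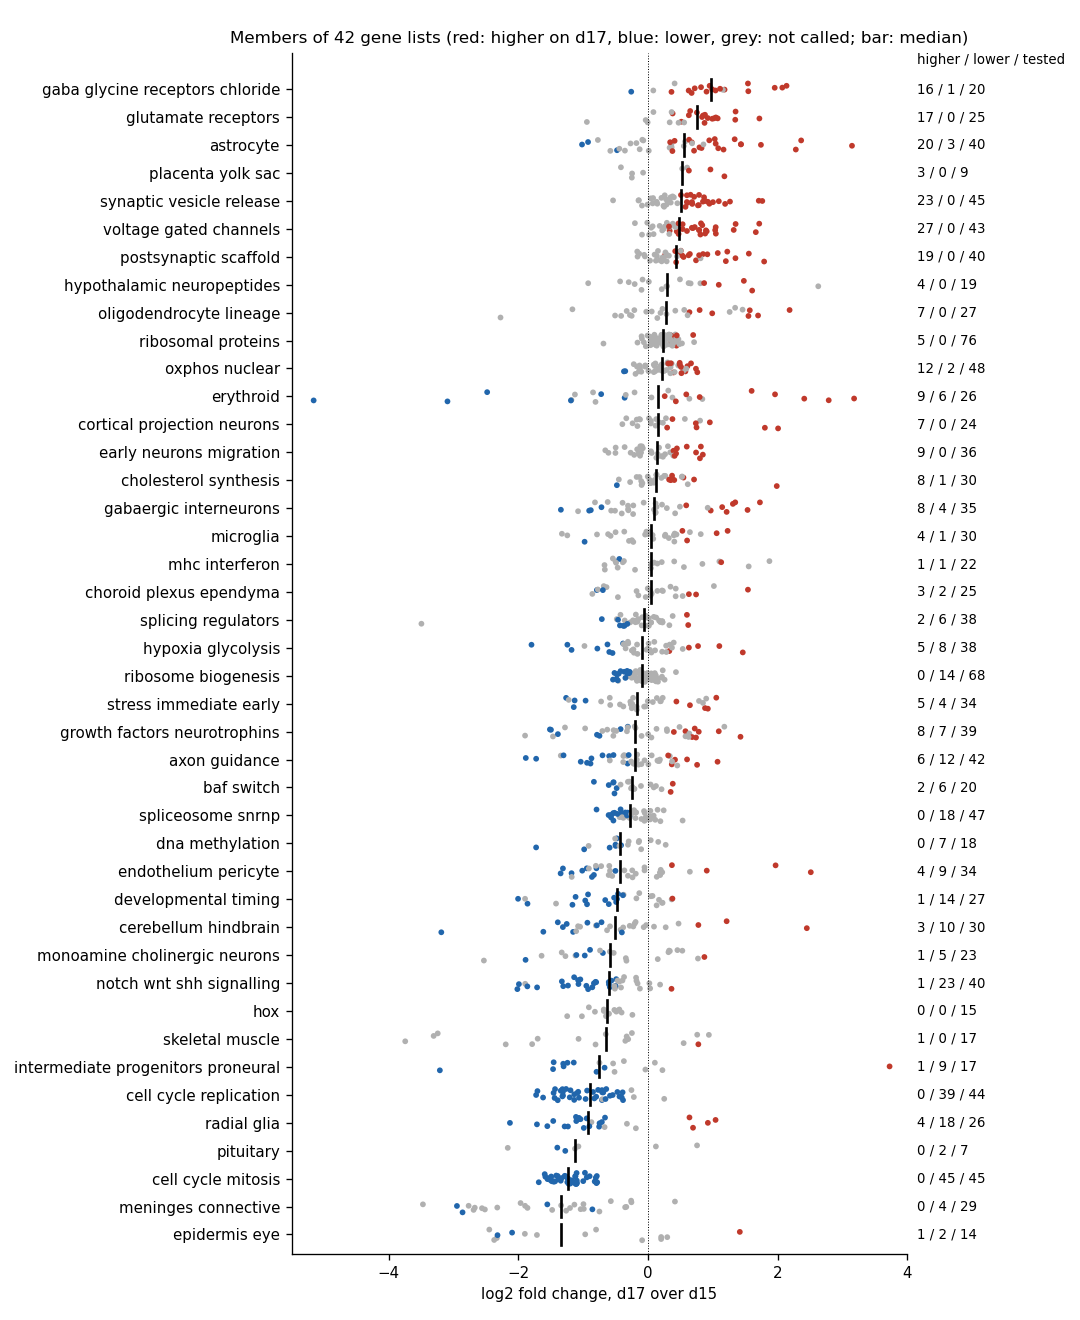
Log2 fold change of each tested member of 42 gene lists, d17 over d15, with lists ordered by their median. Red members were higher on d17, blue members lower and grey members not called, and black bars are medians. All 45 members of the mitosis list were lower, while 17 of 25 glutamate receptor genes were higher and none lower.

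In the fit of all 6 libraries most genes of radial glia were lower. Of 26 listed genes, 18 were lower and 4 higher on d17, with a median log2 fold change of -0.93 against -0.01 for all tested genes. In bulk tissue, fewer cells of a type and less RNA per cell cannot be told apart. Nes, an intermediate filament of neural stem cells, was at 137, 112 and 211 CPM on d15 and 57.7, 42.7 and 39.6 CPM on d17. Every d17 library was below the d15 libraries, of which replicate 3 was the highest (log2 fold change -1.71, SE 0.24, adjusted p = 0.00242), and without that library the change was -1.41 (adjusted p = 0.00253). Sox3, a factor that keeps neural cells undifferentiated, was at 14, 9.49 and 21.8 CPM on d15 and 5.19, 3.02 and 2.11 CPM on d17 (log2 fold change -2.13, SE 0.39, adjusted p = 0.00726), with -1.77 (adjusted p = 0.0158) without d15 replicate 3. Gli3, the repressor of the hedgehog pathway, was at 50.4, 47.3 and 60.05 CPM on d15 and 22.7, 17.2 and 17.3 CPM on d17 and fell with little spread (log2 fold change -1.46, SE 0.14, adjusted p = 0.000843). Nr2e1, a nuclear receptor of stem cell renewal, fell by 1.55 (adjusted p = 0.00133), Hes1 and Hes5, the effectors of Notch, by 1.29 and 1.11 (adjusted p = 0.00118 and 0.0217), and Pax6, which marks dorsal radial glia, by 0.66 on the log2 scale (adjusted p = 0.00407). The radial glia list had 2 higher and 12 lower without d17 replicate 2, and 14 lower without d15 replicate 1 or d17 replicate 3. Sox3 missed the threshold without d17 replicate 2 (adjusted p = 0.0514), and Hes5 missed the threshold without d15 replicate 1 or d17 replicate 1, 2 or 3 (adjusted p = 0.0535, 0.0635, 0.0913 and 0.0677).

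The members of this list that rose are made by late radial glia and by astrocytes, and the cell type behind their rise was not tested. Fabp7, a fatty acid binding protein of radial glia and astrocytes, was at 653, 520.2 and 643 CPM on d15 and 896, 1337 and 1508 CPM on d17 (log2 fold change 1.04, SE 0.19, adjusted p = 0.00688). Tnc, a matrix protein, and Ptprz1, a receptor phosphatase shared with oligodendrocyte precursors, rose by 0.69 and 0.64 (adjusted p = 0.00472 and 0.0104). Hopx, a marker of outer radial glia, was at 3.58, 3.41 and 6.08 CPM on d15 and 7.54, 6.96 and 10.3 CPM on d17 (log2 fold change 0.92, SE 0.27, adjusted p = 0.04403), and its days did not overlap. Ptprz1 missed the threshold without d17 replicate 2 (adjusted p = 0.0657), and Hopx missed the threshold without d15 replicate 1 or 2 or d17 replicate 1, 2 or 3 (adjusted p = 0.119, 0.06401, 0.0765, 0.0977 and 0.176).

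Among proneural factors and markers of intermediate progenitors the called genes were lower with 1 exception. Of 17 genes, 9 were lower and 1 higher, with a median of -0.75, and without d15 replicate 2 the count lower was 13. Neurog2, which drives progenitors to become excitatory neurons, was at 92.7, 59.3 and 91.3 CPM on d15 and 37, 24.7 and 26.9 CPM on d17, so that the lowest d15 library was above the highest d17 library (log2 fold change -1.46, SE 0.20, adjusted p = 0.00251). Its relative Neurog1 was at 5.31, 3.22 and 6.14 CPM on d15 and 0.8995, 0.155 and 0.501 CPM on d17 (log2 fold change -3.21, SE 0.52, adjusted p = 0.00454). Without d17 replicate 1, in which it was highest, its change was -3.88 (adjusted p = 0.00596). Btg2, which marks progenitors about to make neurons, fell by 1.15 (adjusted p = 0.00142). Eomes, the marker of cortical intermediate progenitors, was at 64.1, 30.6 and 43.3 CPM on d15 and 34.1, 24.8 and 23.2 CPM on d17. Its libraries overlapped and it was not called (log2 fold change -0.75, SE 0.26, adjusted p = 0.0699), and its change was -0.43 (adjusted p = 0.197) without d15 replicate 1 and -0.97 (adjusted p = 0.00742) without d15 replicate 2. The member that rose was the neuropeptide gene Tac2, which is made by neurons, at 0.0332, 0.0657 and 0.2003 CPM on d15 and 1.21, 1.55 and 1.36 CPM on d17 (log2 fold change 3.73, SE 0.55, adjusted p = 0.00306). Without d15 replicate 3 the change of Tac2 was 4.68 (adjusted p = 0.00293).

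**Figure D4:**
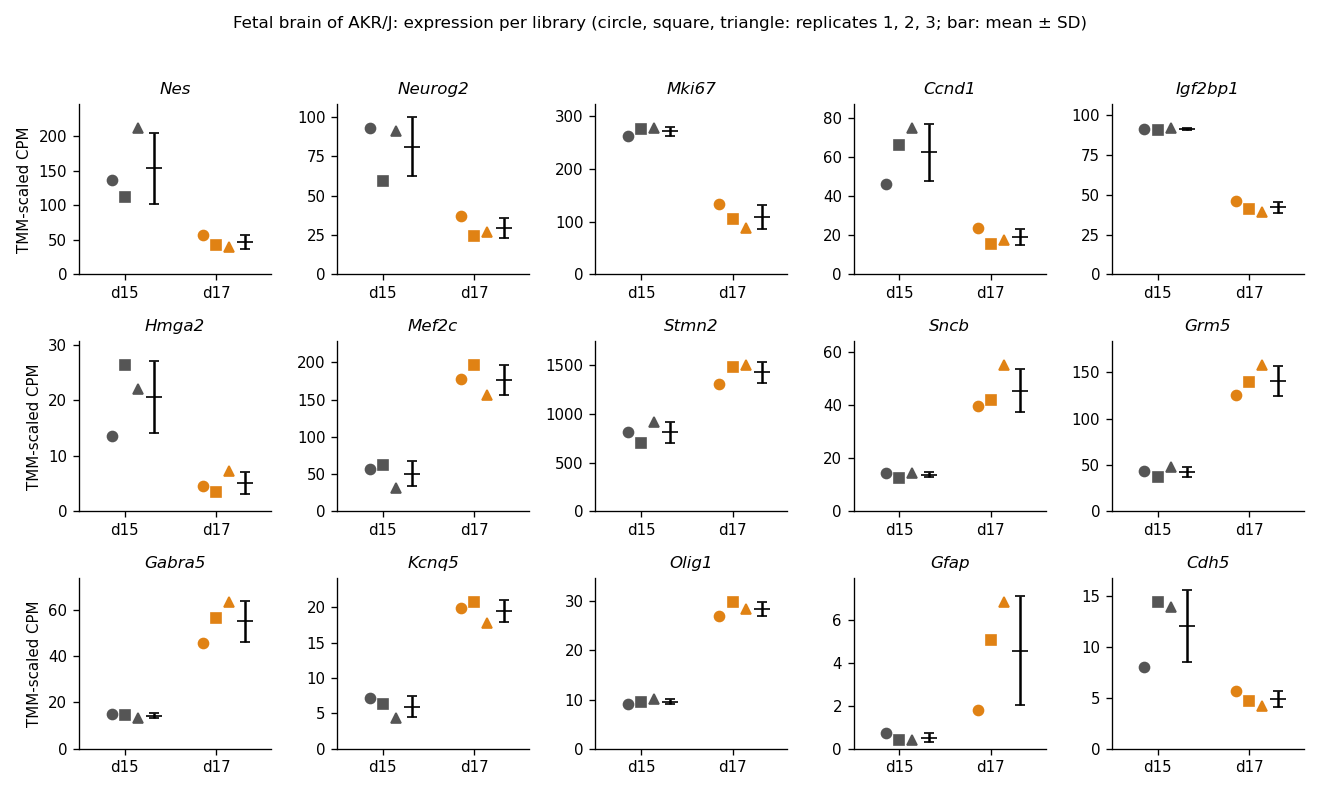
Expression of 15 genes in each library of the fetal brain of AKR/J, in TMM-scaled CPM on axes that start at 0. Circles, squares and triangles are replicates 1, 2 and 3, and bars are the mean ± SD of 3 libraries. The days do not overlap for any of the 15 genes, and Gfap has its lowest d17 value in replicate 1.

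Mitosis was the list of the 42 in which each tested gene was called. All 45 tested genes of mitosis were lower on d17, with changes from -1.69 to -0.78 and a median of -1.23, and all 45 were still called with any one of the 6 libraries left out. Of 44 genes of DNA replication and its control, 39 were lower and none was higher, with a median of -0.89. With 1 library left out, the count lower was 27 to 38 genes. No day overlapped the other in the summed level. Summed over the list, mitosis genes were at 2552, 2571 and 2469 CPM on d15 and 1313, 1074 and 934 CPM on d17.

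Mki67, the proliferation antigen that coats mitotic chromosomes, was at 262, 276 and 277 CPM on d15 and 134, 106 and 88.7 CPM on d17 (log2 fold change -1.31, SE 0.14, adjusted p = 0.00113). Top2a, the topoisomerase that untangles chromosomes, was at 247, 244 and 267 CPM on d15 and 115, 77.5 and 58.4 CPM on d17 (log2 fold change -1.59, SE 0.21, adjusted p = 0.00206). In both, d17 replicate 1 was the highest of its group and stayed below every d15 library. The mitotic kinase Cdk1 and its partner Ccnb1 fell by 0.999 and 1.35 on the log2 scale (adjusted p = 0.00197 and 0.00137). Bub1b, a kinase of the spindle checkpoint, was at 43.3, 40.9 and 48 CPM on d15 and 17.3, 12.3 and 11.5 CPM on d17 (log2 fold change -1.69, SE 0.16, adjusted p = 0.000779), which was the largest fall of the list. Ccnd1, the cyclin that takes cells out of the first gap phase, was at 46.5, 66.6 and 74.9 CPM on d15 and 23.9, 15.8 and 17.8 CPM on d17 (log2 fold change -1.71, SE 0.21, adjusted p = 0.00151). Uhrf1, which brings the maintenance DNA methyltransferase to replicated DNA, was at 44.8, 53.2 and 56.4 CPM on d15 and 19.7, 14.2 and 12.7 CPM on d17 (log2 fold change -1.73, SE 0.17, adjusted p = 0.000874). Subunits of the replicative helicase fell by 1.62 (Mcm3), 1.46 (Mcm2) and 1.31 (Mcm6), and Pcna, the sliding clamp of the polymerases, by 0.54 (adjusted p = 0.00626).

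Since these genes moved together, promoter windows from RefSeq were searched for 2 short motifs known from cell cycle promoters. The window ran from 250 bases before to 50 bases after the gene start on GRCm38.p6, and both strands were read. Of 19989 tested genes, 13201 had a window. The E2F letters searched were TTTCCCGC, TTTCGCGC, TTTGCCGC and TTTGGCGC, the site of the factors that start replication. They stood in 2.26% of all 32851 windows. Counted per gene they stood in 4.24% of the tested genes with a window, in 3.06% of genes higher on d17 and in 7.40% of genes lower on d17. A gene was counted if any of its windows held a match, so that shares of genes and of windows are not on 1 scale. Of the 35 replication genes with a window, 15 (42.9%) held them, and of the 37 mitosis genes, 5 (13.5%) did. The CHR letters searched were TTTGAA and TTCGAA, an element of promoters of mitosis genes. They stood in 19.2% of all windows and 16.8% of tested genes, and in 29 of 37 mitosis genes (78.4%) against 9 of 35 replication genes (25.7%) and 7 of 34 genes of vesicle release (20.6%). Matches of the E2F and CHR letters were counted separately, whether or not they overlapped, and a match is a description of letters, not a site shown to be bound.
The 250 bases before the gene start are shown for the 2 members of each list with the smallest p among those with a match there, with the E2F letters (Uhrf1, Mcm6) or CHR letters (Ube2c, Bub1b) matched on either strand in capitals. Coordinates are those of GRCm38.p6, and each sequence runs 5′ to 3′ on the strand of its gene. The longer run of capitals in Mcm6 holds overlapping matches of both strands.
Uhrf1 (chr17:56304063-56304312, plus strand): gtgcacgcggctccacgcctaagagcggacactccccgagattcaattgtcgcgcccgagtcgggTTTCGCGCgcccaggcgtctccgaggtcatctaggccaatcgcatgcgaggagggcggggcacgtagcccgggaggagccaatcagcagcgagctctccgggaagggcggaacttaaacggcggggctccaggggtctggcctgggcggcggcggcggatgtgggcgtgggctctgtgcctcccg
Mcm6 (chr1:128359706-128359955, minus strand): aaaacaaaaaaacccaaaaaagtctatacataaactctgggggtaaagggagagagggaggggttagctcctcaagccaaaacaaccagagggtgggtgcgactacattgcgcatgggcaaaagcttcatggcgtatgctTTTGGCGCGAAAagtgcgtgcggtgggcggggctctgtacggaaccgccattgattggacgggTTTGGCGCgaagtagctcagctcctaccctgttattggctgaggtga
Ube2c (chr2:164769679-164769928, plus strand): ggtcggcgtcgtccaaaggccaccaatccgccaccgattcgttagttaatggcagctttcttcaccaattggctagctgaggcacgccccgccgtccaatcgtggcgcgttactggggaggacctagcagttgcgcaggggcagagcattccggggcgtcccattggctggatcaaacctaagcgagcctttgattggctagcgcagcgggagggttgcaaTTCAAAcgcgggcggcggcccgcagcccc
Bub1b (chr2:118597961-118598210, plus strand): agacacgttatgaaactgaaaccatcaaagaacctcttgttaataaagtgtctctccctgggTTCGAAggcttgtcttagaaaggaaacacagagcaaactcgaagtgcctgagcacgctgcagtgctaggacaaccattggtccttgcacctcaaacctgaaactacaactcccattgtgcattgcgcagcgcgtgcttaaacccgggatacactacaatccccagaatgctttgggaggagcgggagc
The E2F letters start 185 bases before the gene start in Uhrf1, and the first of 3 matches starts 110 bases before it in Mcm6. The CHR letters start 29 bases before the start in Ube2c and 188 bases before it in Bub1b. Ube2c, which marks mitotic proteins for breakdown, was at 52.8, 50.7 and 55.2 CPM on d15 and 25.7, 21.7 and 21.8 CPM on d17 (log2 fold change -1.197, SE 0.10, adjusted p = 0.000641). Mcm6 was at 77.7, 84 and 75.6 CPM on d15 and 41.2, 29.1 and 25.2 CPM on d17 (log2 fold change -1.31, SE 0.17, adjusted p = 0.00175). In both, every d17 library was below every d15 library.

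In the fit of all 6 libraries most listed genes of 3 progenitor signals, inhibitors of these signals among them, were lower on d17. Of 40 genes of the Notch, Wnt and hedgehog pathways, 23 were lower and 1 higher (median -0.60). Among ligands, Wnt8b, made at the cortical hem, was at 5.61, 3.74 and 7.98 CPM on d15 and 1.97, 1.28 and 1.502 CPM on d17 (log2 fold change -1.86, SE 0.33, adjusted p = 0.00624). Shh, the ligand of the hedgehog pathway, fell by 1.31 (adjusted p = 0.0144), and Jag1 fell by 0.92 (adjusted p = 0.00321). Jag2, another Notch ligand, was the member that rose, by 0.36 (adjusted p = 0.0133). Among receptors, Notch1 was at 67.7, 67.5 and 85.5 CPM on d15 and 42, 29.5 and 30.6 CPM on d17 (log2 fold change -1.11, SE 0.16, adjusted p = 0.00251). Notch2 and the hedgehog transducer Smo fell by 0.86 and 1.23 (adjusted p = 0.0016995 and 0.00139). Of the secreted Wnt inhibitors, Sfrp1 was at 77.9, 91 and 88.1 CPM on d15 and 52.6, 37.5 and 32 CPM on d17 (log2 fold change -1.07, SE 0.17, adjusted p = 0.00405). Sfrp2 was highest in d15 replicate 2, at 52.1 CPM, and its change was -2.02 with and -1.23 (adjusted p = 0.0202) without that library. Tcf7l1, a repressor of Wnt targets, was at 5.78, 12.3 and 8.65 CPM on d15 and 2.59, 1.702 and 2.397 CPM on d17 (log2 fold change -1.99, SE 0.31, adjusted p = 0.00379). The days did not overlap for any gene of these pathways named here. Genes were named in part for the size of their change, and 41.6% of all tested genes had no overlap. The pathway list had 13 lower without d17 replicate 2 and 16 without d17 replicate 3. Shh missed the threshold without d17 replicate 2 or 3 (adjusted p = 0.0772 and 0.0549), and Jag2 missed the threshold without d17 replicate 3 (adjusted p = 0.0728). Sfrp2 missed the threshold without d17 replicate 1, 2 or 3 (adjusted p = 0.0596, 0.1196 and 0.0967).

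Called genes of embryonic timing were lower with 1 exception. Of 27 listed genes, 14 were lower and 1 higher (median -0.48). Igf2bp1 (GRCm39 chr11:95847989-95896911), which stabilizes RNAs in embryonic cells, was at 91.1, 90.7 and 91.6 CPM on d15 and 45.9, 41.2 and 38.9 CPM on d17. The d15 libraries were nearly equal, and the d17 mean was 2.17-fold lower (log2 fold change -1.12, SE 0.09, adjusted p = 0.000523). Hmga2 (GRCm39 chr10:120197173-120313095), a chromatin protein of young stem cells, was at 13.6, 26.2 and 22 CPM on d15 and 4.602, 3.48 and 7.297 CPM on d17 (log2 fold change -2.01, SE 0.32, adjusted p = 0.00407). Lin28b, the inhibitor of let-7 microRNA maturation, was at 51.2, 47.3 and 54.2 CPM on d15 and 54.9, 57.4 and 59.5 CPM on d17 and was not called (log2 fold change 0.17, SE 0.08, adjusted p = 0.188). The Polycomb subunits Ezh2, Eed and Suz12 fell by 0.52, 0.49 and 0.46 (adjusted p = 0.0106, 0.00435 and 0.00392). The timing list had 2 higher without d15 replicate 1, and 9 lower without d17 replicate 2. Ezh2 missed the threshold without d17 replicate 2 or 3 (adjusted p = 0.0715 and 0.0547).

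In the list of DNA methylation genes, 7 of 18 were lower and none was higher (median -0.43). The maintenance enzyme Dnmt1 was at 122, 132 and 144 CPM on d15 and 109, 94.7 and 95 CPM on d17 (log2 fold change -0.41, SE 0.09, adjusted p = 0.0166). The de novo enzyme Dnmt3a fell by 0.502 (adjusted p = 0.0201). Subunits of the BAF remodelling complex differ between progenitors and neurons, and 6 of 20 were lower and 2 higher (median -0.25). The progenitor subunit Actl6a was at 56.8, 48.5 and 56.7 CPM on d15 and 35, 29.98 and 25.8 CPM on d17 (log2 fold change -0.83, SE 0.13, adjusted p = 0.00329). Its neuronal counterpart Actl6b was at 107, 83.5 and 123 CPM on d15 and 117, 119 and 125 CPM on d17 and was not called (log2 fold change 0.21, adjusted p = 0.286). The DNA methylation list had 2 lower without d17 replicate 2 and 3 without d17 replicate 3. The BAF list had 0 higher without d17 replicate 2 and 1 without d17 replicate 3, and 10 lower without d15 replicate 2 and 2 without d17 replicate 2 or 3. Dnmt1 missed the threshold without d17 replicate 2 or 3 (adjusted p = 0.0987 and 0.0787), and Dnmt3a missed the threshold without d17 replicate 2 or 3 (adjusted p = 0.107 and 0.0732).

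Pan-neuronal genes were mostly not called, and some genes of axon growth rose. Of 36 genes of young and migrating neurons, 9 were higher and none was lower, with a median of 0.14. Dcx, given above, and Tubb3, the neuronal tubulin, were not called (log2 fold changes 0.15 and -0.27, adjusted p = 0.433 and 0.368). Without d15 replicate 3 the change of Tubb3 was -0.02 (adjusted p = 0.938). Stmn2, a regulator of microtubules in growing axons, was at 812, 702 and 922 CPM on d15 and 1306, 1483 and 1498 CPM on d17 (log2 fold change 0.82, SE 0.12, adjusted p = 0.00317). Gap43, a protein of growth cones, was at 486, 412 and 571 CPM on d15 and 766, 831 and 859 CPM on d17 (log2 fold change 0.74, SE 0.13, adjusted p = 0.00526). Nefh, the heavy neurofilament, and Stmn4 rose by 0.85 and 0.801 (adjusted p = 0.02798 and 0.00173). The young neuron list had 3 higher without d17 replicate 2 or 3, and 4 lower without d15 replicate 2. Its median was -0.01 without d15 replicate 2. Nefh missed the threshold without d15 replicate 1 or d17 replicate 2 or 3 (adjusted p = 0.07496, 0.0735 and 0.114).

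Among 24 genes of cortical projection neurons, 7 were higher and none was lower (median 0.15). Mef2c, an activity-dependent factor, was at 57, 63 and 31.7 CPM on d15 and 178, 196 and 156 CPM on d17 (log2 fold change 1.804, SE 0.23, adjusted p = 0.00173). Replicate 3 was the lowest library on both days, and the days did not overlap. Rorb, which marks a middle layer, rose by 0.75 (adjusted p = 0.00285). Tbr1 and Bcl11b, factors of the deep layers, were not called, with changes of -0.17 and -0.396 (adjusted p = 0.676 and 0.131). Tbr1 turned to 0.22 (adjusted p = 0.407) without d15 replicate 1. Bcl11b passed the threshold without d17 replicate 1 (adjusted p = 0.0194). The projection neuron list had 1 lower without d15 replicate 2 or d17 replicate 1. Its median ran from 0.07 without d15 replicate 2 to 0.27 without d15 replicate 1.

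Inhibitory neurons showed both directions, with 8 of 35 genes higher and 4 lower (median 0.09). The genes that fell, Nkx2-1, Dlx2, Sox6 and Nr2f2, are transcription factors, and those that rose were Sst, Npy, Cck, Tac1, Calb1, Calb2, Drd1 and Drd2, which code for peptides, calcium buffers and dopamine receptors. Nkx2-1, the factor of the medial ganglionic eminence, was at 47.6, 40.5 and 42.6 CPM on d15 and 25.7, 18.1 and 7.58 CPM on d17, with d17 replicate 3 the lowest (log2 fold change -1.34, SE 0.35, adjusted p = 0.0277). Dlx2 fell by 0.88 (adjusted p = 0.0396). Cck, a peptide of interneurons and other neurons, was at 7.87, 5.25 and 3.94 CPM on d15 and 13.3, 17.8 and 25.4 CPM on d17 (log2 fold change 1.73, SE 0.30, adjusted p = 0.00629). Drd1, the dopamine receptor of striatal output neurons, was at 1.89, 2.101 and 1.77 CPM on d15 and 6.44, 5.22 and 5.08 CPM on d17 (log2 fold change 1.54, SE 0.22, adjusted p = 0.00257). Npy, another interneuron peptide, rose by 1.35 (adjusted p = 0.00453), and Calb2, a calcium buffer, by 1.21 (adjusted p = 0.000583). Gad1, the enzyme that makes GABA, was at 163, 129 and 151 CPM on d15 and 168, 158 and 154 CPM on d17 and was not called (log2 fold change 0.12, adjusted p = 0.425). The inhibitory neuron list had 2 lower without d15 replicate 1, 10 without d15 replicate 2, 8 without d17 replicate 1 and 1 without d17 replicate 2. Its median was -0.14 without d15 replicate 1, -0.05 without d15 replicate 3, -0.02 without d17 replicate 1 and -0.13 without d17 replicate 3. Nkx2-1 missed the threshold without d15 replicate 1 or d17 replicate 2 (adjusted p = 0.0696 and 0.107), and Dlx2 missed the threshold without d15 replicate 1 or 3 or d17 replicate 2 or 3 (adjusted p = 0.101, 0.0749, 0.142 and 0.0718). Nr2f2 missed the threshold without d17 replicate 2 (adjusted p = 0.0787), and Sst missed the threshold without d17 replicate 2 or 3 (adjusted p = 0.09497 and 0.112). Drd2 missed the threshold without d17 replicate 3 (adjusted p = 0.0563).

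Called genes of brain stem and cerebellum were mostly lower. Of 23 genes of monoamine and cholinergic neurons, 5 were lower and 1 higher (median -0.59), and of 30 genes of cerebellum and hindbrain, 10 were lower and 3 higher (median -0.50). The summed levels of both lists and of the Hox genes were highest in d15 replicate 3. Without it, 2 and 8 genes were lower and the medians were -0.26 and -0.30. Barhl2 was at 18, 14.9 and 26.8 CPM on d15 and 7.23, 7.196 and 8.298 CPM on d17 (log2 fold change -1.39, SE 0.22, adjusted p = 0.00399), and its change was -1.12 (adjusted p = 0.00506) without d15 replicate 3. Gata2, a factor of inhibitory midbrain neurons, was at 5.81, 16.8 and 15.1 CPM on d15 and 2.94, 3.52 and 3.72 CPM on d17, with d15 replicate 1 well below the other d15 libraries (log2 fold change -1.89, SE 0.37, adjusted p = 0.00938). Ache, which breaks down acetylcholine, rose by 0.87 (adjusted p = 0.001499). None of the 15 tested Hox genes was called, and their median turned from -0.64 to 0.90 without d15 replicate 3. Of 19 tested genes of hypothalamic and other neuropeptides, 4 were higher (median 0.30). Vgf, a precursor of secreted peptides, was at 3.98, 3.15 and 4.57 CPM on d15 and 8.72, 10.7 and 13.3 CPM on d17 (log2 fold change 1.48, SE 0.22, adjusted p = 0.00329). The neuropeptide list had a median of 0.62 without d15 replicate 3. The monoamine and cholinergic list had 2 higher without d15 replicate 2, and 2 lower without d15 replicate 3 or d17 replicate 1 or 3 and 0 without d17 replicate 2. The cerebellum and hindbrain list had 1 higher without d17 replicate 2 or 3, and 3 lower without d17 replicate 2 or 3. Gata2 missed the threshold without d17 replicate 2 (adjusted p = 0.0544).

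Axon guidance genes moved in both directions, with 12 of 42 lower and 6 higher (median -0.20). Robo3, the receptor that lets axons cross the midline, was at 59.9, 50.1 and 114 CPM on d15 and 20.5, 18 and 22.2 CPM on d17, and its change was -1.89 with and -1.44 (adjusted p = 0.00154) without d15 replicate 3. Ntn1, the midline attractant, was at 27.6, 33.7 and 82.1 CPM on d15 and 19.9, 12.9 and 10.6 CPM on d17. It was -1.73 with and -1.08 (adjusted p = 0.0226) without that library, which had the highest value. Its receptor Dcc fell by 1.04 (adjusted p = 0.0138). Sema3c and Epha6 rose by 0.76 and 1.07 (adjusted p = 0.00708 and 0.00456). The axon guidance list had 3 higher without d17 replicate 2, and 3 lower without d17 replicate 2 and 4 without d17 replicate 3. Ntn1 missed the threshold without d17 replicate 2 or 3 (adjusted p = 0.102 and 0.0969), and Dcc missed the threshold without d17 replicate 2 or 3 (adjusted p = 0.0781 and 0.0706).

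Among genes of the synapse every called gene was higher. Of 45 genes of transmitter release, 23 were higher and none was lower (median 0.51), and of 40 genes of the postsynaptic side, 19 were higher and none was lower (median 0.43). The summed level of release genes was 3494, 3112 and 3966 CPM on d15 and 4625, 4780.0 and 5097 CPM on d17, with d15 replicate 2 the lowest. Sncb, a synuclein of nerve endings, was at 14.4, 12.7 and 14.6 CPM on d15 and 39.5, 41.9 and 54.8 CPM on d17 (log2 fold change 1.71, SE 0.14, adjusted p = 0.000659). Snap25, a subunit of the fusion complex, was at 129, 117 and 135 CPM on d15 and 204, 239 and 259.8 CPM on d17 (log2 fold change 0.88, SE 0.11, adjusted p = 0.00147). Syt1, the calcium sensor of release, was at 98.2, 86.7 and 139 CPM on d15 and 144, 142 and 158 CPM on d17. The days did not overlap, with d15 replicate 3 close to d17 replicate 2, and the gene was not called (log2 fold change 0.45, SE 0.16, adjusted p = 0.0771). It passed the threshold without d15 replicate 3, with a change of 0.68 (adjusted p = 0.00374). Postsynaptic scaffolds rose with Dlg2 by 1.35 and Dlgap1 by 1.08 (adjusted p = 0.000376 and 0.000707), while Dlg4 was at 223, 199.7 and 235 CPM on d15 and 221, 204 and 207 CPM on d17 and was not called (log2 fold change -0.06, adjusted p = 0.661). Camk2b, a kinase of synaptic plasticity, was at 101, 81.4 and 105 CPM on d15 and 218, 222 and 221 CPM on d17 (log2 fold change 1.201, SE 0.10, adjusted p = 0.000708). The postsynaptic list had 12 higher without d17 replicate 2 or 3.

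Called receptor genes for glutamate were higher, as were most of those for GABA. Of 25 glutamate receptor genes, 17 were higher and none was lower (median 0.76), and the count higher was 12 without d17 replicate 2 or 3. Grm5, a metabotropic receptor, was at 43.1, 37.5 and 47.5 CPM on d15 and 126, 139 and 157 CPM on d17 (log2 fold change 1.72, SE 0.12, adjusted p = 0.000444). Grin2a and Grin2b, alternative subunits of the NMDA receptor of which the first takes over after birth, were both higher. Grin2a was at 5.48, 6.76 and 6.18 CPM on d15 and 9.62, 13.5 and 13.5 CPM on d17 (log2 fold change 0.99, SE 0.19, adjusted p = 0.00834). Grin2b was at 112, 93.9 and 109 CPM on d15 and 165, 173 and 150.4 CPM on d17 (log2 fold change 0.63, SE 0.09, adjusted p = 0.00317). The days did not overlap for either. The AMPA receptor subunit Gria2 was at 934, 684 and 697 CPM on d15 and 1381, 1588 and 1416 CPM on d17 (log2 fold change 0.92, SE 0.14, adjusted p = 0.00321). Of 20 genes of GABA and glycine receptors and chloride transport, 16 were higher and 1 lower (median 0.97), and 15 or 16 were higher with any 1 library left out. Gabra5, a subunit of extrasynaptic receptors, was at 15.1, 14.3 and 13.2 CPM on d15 and 45.5, 56.5 and 63.3 CPM on d17 (log2 fold change 1.96, SE 0.13, adjusted p = 0.000444). Gabrg1 rose by 2.14 (adjusted p = 0.000449). The chloride transporters moved apart, with the exporter Slc12a5 at 97.7, 87.1 and 100.4 CPM on d15 and 119, 119 and 129 CPM on d17 (log2 fold change 0.36, SE 0.08, adjusted p = 0.0173) and the importer Slc12a2 at 111, 115 and 114 CPM on d15 and 96.5, 94.9 and 92.2 CPM on d17 (log2 fold change -0.26, SE 0.07, adjusted p = 0.0282). Grin2a missed the threshold without d17 replicate 2 or 3 (adjusted p = 0.0549 and 0.0522), and Slc12a5 missed the threshold without d17 replicate 2 or 3 (adjusted p = 0.075 and 0.0779). Slc12a2 missed the threshold without d15 replicate 1 or 2 or d17 replicate 2 or 3 (adjusted p = 0.0724, 0.0512, 0.123 and 0.105).

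Of 43 genes of voltage-gated and related channels, 27 were higher and none was lower (median 0.47). Kcnq5, a potassium channel that steadies the membrane potential, was at 7.17, 6.27 and 4.31 CPM on d15 and 19.9, 20.7 and 17.7 CPM on d17 (log2 fold change 1.72, SE 0.20, adjusted p = 0.00137). The sodium channels Scn1a and Scn2a rose by 1.04 and 0.91 (adjusted p = 0.00128 and 0.0016995). For the channel genes named here, chosen in part for the size of their change, every d17 library was above every d15 library. The channel list had 16 higher without d17 replicate 2.

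A part of the astrocyte genes rose. Of 40 astrocyte genes, 20 were higher and 3 lower (median 0.56). Gfap, the filament of mature astrocytes, was at 0.7302, 0.394 and 0.401 CPM on d15 and 1.799, 5.03 and 6.796 CPM on d17 (log2 fold change 3.15, SE 0.52, adjusted p = 0.00497). Its d17 level was low in replicate 1 but above every d15 library. Aqp4, the water channel of astrocyte endfeet, was at 2.62, 10.2 and 4.37 CPM on d15 and 16.6, 29.1 and 38.1 CPM on d17. It was highest on d15 in replicate 2, and its change was 2.28 with (adjusted p = 0.0127) and 2.996 (adjusted p = 0.000971) without that library. Itih3 rose by 2.36 and Slc4a4, a bicarbonate transporter, by 1.34 (adjusted p = 0.00128 and 0.00228). The members that fell, Fgfr3, Sox9 and Nfia (by 1.02, 0.93 and 0.48), are also made by radial glia. The cell type behind these falls was not tested. Slc1a2, the glutamate transporter, was at 149, 137 and 239 CPM on d15 and 129, 132 and 149.7 CPM on d17 and was not called (log2 fold change -0.36, adjusted p = 0.224). It was highest in d15 replicate 3, and without that library its change was -0.06 (adjusted p = 0.682). The astrocyte list had 10 higher without d17 replicate 2 and 9 without d17 replicate 3. Aqp4 missed the threshold without d17 replicate 2 or 3 (adjusted p = 0.0601 and 0.0688), and Nfia missed the threshold without d17 replicate 2 or 3 (adjusted p = 0.07695 and 0.0618).

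In the oligodendrocyte lineage, 7 of 27 genes were higher and none was lower (median 0.28). Olig1, a factor of precursors, was at 9.16, 9.46 and 10.1 CPM on d15 and 27, 29.8 and 28.5 CPM on d17, with no overlap and small spread (log2 fold change 1.57, SE 0.11, adjusted p = 0.000444). Gpr17, a receptor of cells that start to differentiate, was at 1.13, 1.71 and 1.74 CPM on d15 and 5.22, 7.39 and 8.23 CPM on d17 (log2 fold change 2.19, SE 0.28, adjusted p = 0.00173). Olig2, needed to specify the lineage, was at 13.5, 11.4 and 14.8 CPM on d15 and 16.5, 17 and 19.5 CPM on d17 and was not called (log2 fold change 0.42, adjusted p = 0.0649). Pdgfra, which marks precursors and also connective tissue cells, was at 15.8, 66 and 18.6 CPM on d15 and 25.9, 26.7 and 30.1 CPM on d17. Its change was -0.28 with (adjusted p = 0.714) and 0.68 (adjusted p = 0.00602) without d15 replicate 2. Mbp, a myelin protein, was not called (log2 fold change 0.22, adjusted p = 0.268). The oligodendrocyte list had 14 higher without d15 replicate 2 and 4 without d17 replicate 2, and 2 lower without d15 replicate 2. Its median was 0.68 without d15 replicate 2.

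Of 30 microglia genes, 4 were higher and 1 lower (median 0.05). Aif1, a marker of microglia, was at 3.88, 3.78 and 2.54 CPM on d15 and 7.16, 7.27 and 9.48 CPM on d17 (log2 fold change 1.23, SE 0.23, adjusted p = 0.00836). P2ry12, their nucleotide receptor, rose by 0.603 (adjusted p = 0.0208), and Cx3cr1 was not called at 0.07 (adjusted p = 0.793). Sall1, the member that fell (by 0.98), is also made by neural progenitors, and the cell type behind its fall was not tested. Of 34 genes of vessels, 9 were lower and 4 higher (median -0.43). Cdh5, the cadherin of endothelial junctions, was at 8.03, 14.4 and 13.9 CPM on d15 and 5.71, 4.72 and 4.18 CPM on d17 (log2 fold change -1.31, SE 0.25, adjusted p = 0.00874). Higd1b, a pericyte gene, was at 0.863, 1.05 and 0.935 CPM on d15 and 5.16, 5.18 and 5.97 CPM on d17 (log2 fold change 2.51, SE 0.23, adjusted p = 0.000754), and Cldn5, the tight junction protein of brain vessels, was not called (log2 fold change -0.19, adjusted p = 0.538). The microglia list had 1 higher without d15 replicate 1 or d17 replicate 2 or 3. Its median was -0.05 without d17 replicate 1. The vessel list had 2 lower without d17 replicate 2 or 3. Aif1 missed the threshold without d17 replicate 3 (adjusted p = 0.0527), and P2ry12 missed the threshold without d15 replicate 1 or d17 replicate 2 or 3 (adjusted p = 0.0511, 0.0899 and 0.0988). Cdh5 missed the threshold without d17 replicate 2 or 3 (adjusted p = 0.0547 and 0.0533).

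Embryonic globins fell, and the adult globins that were called rose. Of 26 listed genes, 9 were higher and 6 lower (median 0.16). Hbb-y, the embryonic beta globin, was at 771, 984 and 1640.0 CPM on d15 and 38.4, 8.36 and 48 CPM on d17 (log2 fold change -5.16, SE 0.61, adjusted p = 0.00142). Hba-x, the embryonic alpha-like globin, was at 27.1, 34.8 and 56.4 CPM on d15 and 6.297, 1.702 and 5.76 CPM on d17 (log2 fold change -3.09, SE 0.45, adjusted p = 0.00276). The adult globin Hbb-bs (GRCm39 chr7:103475730-103482989) was at 701, 1167 and 686 CPM on d15 and 6462, 2484 and 14212 CPM on d17, and d17 replicate 2 was the lowest of its group for adult globins (log2 fold change 3.18, SE 0.57, adjusted p = 0.00652). Alas2, the first enzyme of heme synthesis in red cells, was at 13.8, 24.3 and 15.9 CPM on d15 and 112, 49.4 and 212 CPM on d17 (log2 fold change 2.79, SE 0.48, adjusted p = 0.00552). Both were highest in d17 replicate 3, and without it the changes were 2.38 (adjusted p = 0.0204) for Hbb-bs and 2.16 (adjusted p = 0.0193) for Alas2. Hbb-bt rose by 2.41 (adjusted p = 0.0188), with a change of 1.66 (adjusted p = 0.0728) without d17 replicate 3, and Hba-a2 was not called (log2 fold change 0.84, adjusted p = 0.409). Adult globins have near-identical copies, so that the split of reads between Hbb-bs and Hbb-bt is uncertain. Reads of the list took 0.251%, 0.370% and 0.356% of the d15 libraries and 1.06%, 0.401% and 1.98% of the d17 libraries, and the blood left in the dissected brain was not measured otherwise. Genes of red cells other than globins were in both groups, with Tfrc, the transferrin receptor, higher and Tal1, a blood factor, lower. The red blood cell list had 3 higher without d15 replicate 1, 4 without d17 replicate 1 and 2 without d17 replicate 3, and 3 lower without d17 replicate 1, 2 or 3. Hbb-bt missed the threshold without d15 replicate 1 or d17 replicate 3 (adjusted p = 0.0606 and 0.0728), and Tfrc missed the threshold without d15 replicate 1 or 3 or d17 replicate 1, 2 or 3 (adjusted p = 0.0688, 0.0615, 0.0551, 0.139 and 0.105). Tal1 missed the threshold without d17 replicate 1, 2 or 3 (adjusted p = 0.0544, 0.139 and 0.104).

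Markers of tissues around the brain followed d15 replicate 2. Of 29 genes of meninges and connective tissue, 4 were lower and none was higher (median -1.34), but without that library 3 were lower, 3 were higher and the median was 0.01. Col1a1, the main bone and skin collagen, was at 7.999, 263 and 11.9 CPM on d15 and 11.3, 5.34 and 8.69 CPM on d17 and was not called (log2 fold change -3.47, SE 1.22, adjusted p = 0.0755), with -0.23 (adjusted p = 0.614) without that library. For skeletal muscle, with 1 of 17 tested genes higher, and for epidermis and eye, with 1 of 14 higher and 2 lower, medians turned from -0.65 and -1.34 to 0.73 and 0.37 without d15 replicate 2. Dct, an enzyme of pigment cells, was at 5.08, 9.36 and 5.64 CPM on d15 and 1.76, 1.16 and 1.07 CPM on d17, and its change was -2.32 (adjusted p = 0.00251) with and -2.002 (adjusted p = 0.00147) without d15 replicate 2. Of 25 choroid plexus and ependyma genes, 3 were higher and 2 lower (median 0.04). Ttr, the thyroid hormone carrier of the choroid plexus, was at 365, 266 and 366 CPM on d15 and 539, 505 and 501 CPM on d17 (log2 fold change 0.63, SE 0.13, adjusted p = 0.0108). Of 7 tested pituitary genes, 2 were lower (median -1.13), and the hormone genes Gh and Fshb had no reads in any of the 6 libraries. Of 9 tested genes of placenta and yolk sac, 3 were higher (median 0.53), Ttr among them, and Afp and Apoa1 were not called. Of 22 genes of antigen presentation and the interferon response, 1 was higher and 1 lower (median 0.05). The connective tissue list had 3 higher without d15 replicate 2, and 9 lower without d15 replicate 1, 12 without d15 replicate 3 and 1 without d17 replicate 1, 2 or 3. The muscle list had 4 higher without d15 replicate 2, and 2 lower without d15 replicate 1. The epidermis and eye list had 2 higher without d15 replicate 1 or d17 replicate 2 and 4 without d15 replicate 2, and 1 lower without d17 replicate 2 or 3. The choroid plexus list had 1 lower without d15 replicate 3 or d17 replicate 1, 2 or 3. Its median was -0.03 without d17 replicate 3. The pituitary list had 1 lower without d15 replicate 3 or d17 replicate 1, 2 or 3. The placenta and yolk sac list had 1 higher without d17 replicate 2 or 3. Its median was 0.85 without d15 replicate 2. The antigen presentation list had 4 higher without d15 replicate 2 and 2 without d17 replicate 2. It had 0 lower without d15 replicate 1, 2 or 3 or d17 replicate 2 or 3. Its median was -0.03 without d15 replicate 1, -0.23 without d15 replicate 3, -0.01 without d17 replicate 1 and -0.04 without d17 replicate 2. Col1a1 passed the threshold without d15 replicate 1 or 3 (adjusted p = 0.03604 and 0.039), and Ttr missed the threshold without d17 replicate 2 (adjusted p = 0.0556).

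Called genes of the spliceosome and of ribosome assembly were lower. Of 47 spliceosome genes, 18 were lower and none was higher (median -0.28). Snrpb, a core protein of the particles, was at 98.8, 90.5 and 116 CPM on d15 and 66.4, 54.5 and 54.9 CPM on d17 (log2 fold change -0.79, SE 0.12, adjusted p = 0.00312). Of 38 splicing regulators, 6 were lower and 2 higher (median -0.06). Ptbp1, which holds back neuronal exons in progenitors, was at 88.8, 106 and 97.6 CPM on d15 and 68.9, 56.5 and 52.9 CPM on d17 (log2 fold change -0.71, SE 0.12, adjusted p = 0.00458). Rbfox1 and Celf2, regulators of neuronal exons, rose by 0.62 and 0.601 (adjusted p = 0.0415 and 0.0126). Of 68 genes of ribosome assembly, 14 were lower and none was higher (median -0.10). Nucleolin, Ncl, fell by 0.42 (adjusted p = 0.0109). The spliceosome list had 9 lower without d15 replicate 1, 10 without d15 replicate 3, 1 without d17 replicate 2 and 6 without d17 replicate 3. The splicing regulator list had 1 higher without d15 replicate 1 or d17 replicate 1 or 3, 4 without d15 replicate 3 and 0 without d17 replicate 2, and 3 lower without d15 replicate 1 and 1 without d17 replicate 2 or 3. The ribosome assembly list had 6 lower without d15 replicate 1 and 2 without d17 replicate 2 or 3. Rbfox1 missed the threshold without d15 replicate 1 or d17 replicate 1, 2 or 3 (adjusted p = 0.117, 0.0743, 0.134 and 0.1404), and Celf2 missed the threshold without d17 replicate 2 (adjusted p = 0.0736). Ncl missed the threshold without d17 replicate 2 or 3 (adjusted p = 0.0724 and 0.0573).

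Of 76 ribosomal protein genes, 5 were higher and none was lower (median 0.23), and these genes have many processed copies in the genome that can share their reads. The ribosomal protein list had 0 higher without d15 replicate 1 or d17 replicate 2 or 3, 14 without d15 replicate 2, 1 without d15 replicate 3 and 28 without d17 replicate 1. Its median ran from 0.12 without d17 replicate 3 to 0.31 without d17 replicate 1. Nuclear genes of oxidative phosphorylation were higher in 12 and lower in 2 of 48 cases (median 0.21). Cox7a2, a subunit of cytochrome oxidase, was at 119, 118 and 117 CPM on d15 and 160.3, 205 and 235 CPM on d17, with d17 replicate 1 the lowest of its group (log2 fold change 0.76, SE 0.13, adjusted p = 0.00535). The oxidative phosphorylation list had 7 higher without d15 replicate 3, 22 without d17 replicate 1, 1 without d17 replicate 2 and 3 without d17 replicate 3. It had 0 lower without d15 replicate 1 or 3 or d17 replicate 2 or 3. Its median ran from 0.13 without d17 replicate 3 to 0.31 without d17 replicate 1. Reads of mitochondrial genes took 2.26% to 2.69% of the d15 libraries and 3.29% to 4.49% of the d17 libraries. In the list of glycolysis and hypoxia, 8 of 38 were lower and 5 higher (median -0.09). Hk2, the hexokinase of growing cells, was at 6.84, 9.72 and 11.3 CPM on d15 and 2.94, 2.63 and 2.43 CPM on d17 (log2 fold change -1.798, SE 0.23, adjusted p = 0.00186). Pfkp, the platelet-type phosphofructokinase that the brain also uses, was at 529, 471 and 461 CPM on d15 and 1150.1, 1381 and 1496 CPM on d17 (log2 fold change 1.46, SE 0.12, adjusted p = 0.000659). Eno1 and its neuronal form Eno2 moved apart, by -0.597 and 0.77 (adjusted p = 0.0199 and 0.00158). The glycolysis and hypoxia list had 3 higher without d17 replicate 2 or 3, and 4 lower without d17 replicate 2 and 5 without d17 replicate 3. Eno1 missed the threshold without d17 replicate 2 or 3 (adjusted p = 0.106 and 0.08601).

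Of 30 cholesterol genes, 8 were higher and 1 lower (median 0.13). Of 39 genes of growth factors and their receptors, 8 were higher and 7 lower (median -0.19). Bdnf, a neurotrophin, was at 2.95, 3.97 and 3.87 CPM on d15 and 7.27, 8.09 and 7.69 CPM on d17 (log2 fold change 1.09, SE 0.19, adjusted p = 0.00632). Mdk, a heparin-binding factor of embryonic tissue, was at 98.9, 132 and 102 CPM on d15 and 47.5, 39.96 and 39.3 CPM on d17 (log2 fold change -1.39, SE 0.13, adjusted p = 0.000787), while its relative Ptn rose by 0.399 (adjusted p = 0.02004). In the list of stress and immediate early genes, 5 of 34 were higher and 4 lower (median -0.17). Npas4, an activity-induced factor of neurons, rose by 0.88 (adjusted p = 0.00862), and Fos was not called (log2 fold change -0.38, adjusted p = 0.494), with -0.12 (adjusted p = 0.862) without d15 replicate 2. The cholesterol list had 4 higher without d15 replicate 1 and 2 without d17 replicate 2 or 3. It had 2 lower without d15 replicate 2 or d17 replicate 1 and 0 without d17 replicate 2. The growth factor list had 3 higher without d15 replicate 1 or d17 replicate 2 or 3, and 2 lower without d17 replicate 2 or 3. Its median was 0.13 without d15 replicate 2. The stress list had 2 higher without d15 replicate 1 or d17 replicate 2 or 3 and 3 without d15 replicate 2 or d17 replicate 1, and 7 lower without d15 replicate 2. Its median was 0.03 without d15 replicate 2. Ptn missed the threshold without d15 replicate 1 or d17 replicate 2 or 3 (adjusted p = 0.0764, 0.0835 and 0.0985).

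Genes that rose were longer in genomic span than genes that fell. Of 15204 tested protein-coding genes with a GENCODE span, genes higher on d17 had a median span of 39.1 kb, those lower 27.0 kb and all tested 27.0 kb, while the median exonic lengths were 6.93, 6.52 and 6.16 kb. When these genes were divided into 5 equal groups by span, 22.2% of the longest group (81.0 to 2962 kb) were higher on d17, against 10.8% to 12.3% of the other groups. The share lower on d17 was 11.8% in the longest group and 11.2% to 14.4% in the others. The longest group had the highest share of rising genes both above the median expression (24.6%, others 12.4% to 14.6%) and below it (19.2%, others 8.60% to 11.3%). Span was not compared between the gene lists, and the part of length in read counting was not tested. By class, 13.4% of protein-coding genes were higher and 12.9% lower, against 6.38% and 2.87% of 2367 long noncoding RNAs. The share called per chromosome was lowest on chromosome 1 (19.2%) and highest on chromosome 14.

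**Figure D5:**
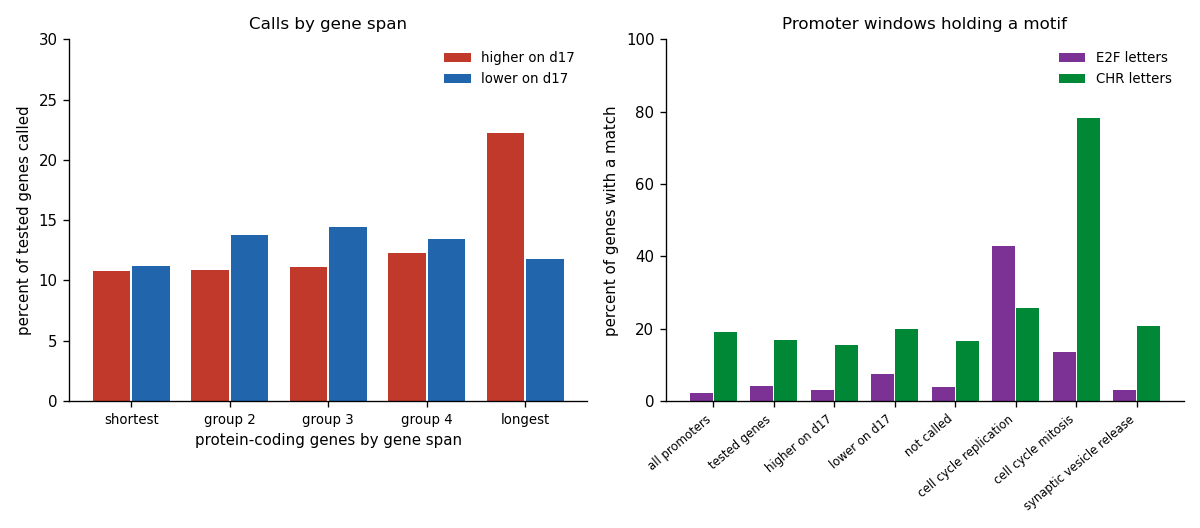
Left, percent of tested protein-coding genes called higher (red) or lower (blue) on d17 in 5 equal groups of gene span. Right, percent of genes, or of windows for all promoters, with E2F letters (purple) or CHR letters (green) in the promoter window. The longest group stands at 22.2% higher, and CHR letters reach 78.4% in the mitosis list.

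Whether the change of AKR/J differed from that of the other strains was tested by an interaction of strain and day over 12 libraries. Against C57BL/6J, 1 of 21373 genes (0.00468%) differed, the processed pseudogene Gm13736, and 1617 genes had an unadjusted p under 0.05. With DESeq2 the count was 45 (18 more positive and 27 more negative in AKR/J), and without C57BL/6J d17 replicate 1 it was 823. Against Cav1-null mice, 462 of 21663 genes (2.13%) differed, with 320 changes more positive and 142 more negative in AKR/J. That count ranged from 0 without Cav1-null d15 replicate 3 to 1130 without AKR/J d17 replicate 1, and it was 305 without AKR/J d15 replicate 3, 1059 without AKR/J d15 replicate 1, and 16 to 90 without AKR/J d17 replicate 2 or 3, Cav1-null d15 replicate 1 or 2 or Cav1-null d17 replicate 2 or 3. No difference from Cav1-null mice named here was therefore called without Cav1-null d15 replicate 3. A smaller count against C57BL/6J does not show that AKR/J changed like that strain.

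Red cell genes led the changes that were more positive in AKR/J than in Cav1-null mice, and no call of this contrast was kept without Cav1-null d15 replicate 3. In CPM scaled over all 27 libraries, the mean of Hbb-bs with its lowest and highest library was 805 (672 to 1070.3) on d15 and 7124 (2283 to 12981) on d17 in AKR/J, and 1767 (1532 to 1925) on d15 and 828 (288 to 1363) on d17 in Cav1-null mice. AKR/J and Cav1-null mice moved in opposite directions, and the difference in log2 fold change was 4.22 (SE 0.78, adjusted p = 0.0239). A rise of the red cell list was not particular to AKR/J. In C57BL/6J its reads took 0.128%, 0.102% and 0.116% of the d15 libraries and 0.264%, 0.362% and 0.327% of the d17 libraries. The RNA 9130024F11Rik was 6.32 (4.097 to 9.55) on d15 and 28.4 (22.1 to 33.1) on d17 in AKR/J, 19 (17.5 to 20.5) on d15 and 26 (22 to 29.1) on d17 in C57BL/6J, and 25.5 (24.3 to 26.6) on d15 and 22.3 (17.3 to 28.5) on d17 in Cav1-null mice. The d15 libraries of AKR/J lay below all others of these days. Nr1h5, a nuclear receptor for sterols, was 9.61 (7.61 to 10.8) on d15 and 1.48 (0.996 to 2.06) on d17 in AKR/J, 1.52 (1.22 to 1.697) on d15 and 0.624 (0.172 to 1.03) on d17 in C57BL/6J, and 0.203 (0.0644 to 0.334) on d15 and 0.497 (0.377 to 0.572) on d17 in Cav1-null mice (difference from Cav1-null mice -3.98, SE 0.58, adjusted p = 0.01297). Tcf7l1 was 8.43 (5.54 to 11.3) on d15 and 2.07 (1.56 to 2.45) on d17 in AKR/J, 19.4 (16.3 to 23.7) on d15 and 4.45 (2.56 to 7.29) on d17 in C57BL/6J, and 2.41 (2.303 to 2.54) on d15 and 2.59 (2.42 to 2.74) on d17 in Cav1-null mice. The difference of AKR/J from C57BL/6J was within its error (difference 0.14, SE 0.50, adjusted p = 0.961), and that from Cav1-null mice was not (difference -2.14, SE 0.37, adjusted p = 0.0222).

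Late-phase changes of genes described above are set side by side for the strains. For cell cycle genes the log2 fold changes, first in AKR/J, then in C57BL/6J and last in Cav1-null mice, were -1.31, -1.77 and -1.14 for Mki67 and -1.71, -1.41 and -0.30 for Ccnd1. For neuronal genes they were 1.96, 1.70 and 1.22 for Gabra5, and 1.804, 1.16 and 0.93 for Mef2c. For Gfap they were 3.15, 3.80 and 3.27. Adjusted p of the difference for Mef2c was 0.677 against C57BL/6J and 0.0916 against Cav1-null mice, and for Ccnd1 it was 0.893 and 0.0225.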

How the data were processed

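The deposited table holds counts of reads per gene, which the authors made from polyA-selected RNA-seq libraries with random hexamer cDNA. Reads were checked with FastQC, trimmed with cutadapt and fastp and aligned with STAR to GRCm39, and the submitters' processing notes also name bedtools and edgeR. The counting step and its strand setting are not given in the sources used here. Totals were 26363697 to 30160663 reads in the 6 AKR/J libraries, and replicates of a day differed by more than counting error (chi-square per degree of freedom 22.2 to 79.2).

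Genes were kept by filterByExpr, scaled by TMM and tested with the quasi-likelihood test of edgeR 4.0.16 in R 4.3.3 between d15 and d17, with Benjamini-Hochberg adjustment over all 19989 genes and a threshold of 0.05. SE is the absolute log2 fold change divided by the square root of F. The study compared the same days with edgeR, and the legend of its results names a likelihood ratio, which was run here as an alternative. Strain differences were tested as an interaction over 12 libraries. Scripts were tested on simulated data. Named genes are the 12 largest rises and falls above a floor of 3 on the average log2 CPM and without overlap, the 5 smallest p in each direction, the first 3 members of each of 42 lists with the 3 largest rises and falls among its called members, the label checks, and the 5 largest differences in each direction of each strain contrast. A further 27 list members were named after their values were seen. Some genes that meet the rule are not reported here. The members and lists were chosen with earlier results of these data known. Symbols, spans and gene classes come from GENCODE M39 by Ensembl ID, and promoters from RefSeq (GRCm38.p6). Alternatives were DESeq2 1.42.0, the likelihood ratio test, other scalings and filters, a replicate block, other sets of libraries in the model, thinning to the smallest library, and each library left out. Figures were drawn with matplotlib 3.10.9.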

Additional observations from a re-analysis of the deposited data

Results flagged for a closer look

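The interaction test of edgeR called 1 gene against C57BL/6J and 462 against Cav1-null mice, at an adjusted p under 0.05. Of these, 10 genes are taken up here because their change from d15 to d17 differed between AKR/J and another strain. They are among the largest differences in each direction above a floor of 1 on the average log2 CPM. For Gm13736, a processed pseudogene whose reads may come from a near-identical copy, the log2 fold change of AKR/J minus that of C57BL/6J was 7.99 (SE 0.50, adjusted p = 3.47e-05). That size rests on 1 read in the 3 C57BL/6J d17 libraries against 369 on d15, a ratio of 330.2 (exact 95% interval 58.9 to 13080, for counting error only). The size was 7.53 to 9.88 with 1 library left out, and the difference was not called in 1 model of 27 libraries (adjusted p = 0.439). In CPM scaled over all 27 libraries, its mean over the 3 libraries of a group, with the lowest and highest library, was 11.5 (10.03 to 12.6) on d15 and 12 (11.7 to 12.2) on d17 in AKR/J, 3.48 (3.22 to 3.98) on d15 and 0.0106 (0 to 0.0319) on d17 in C57BL/6J, and 0.0781 (0.0644 to 0.1002) on d15 and 0.106 (0.0319 to 0.252) on d17 in Cav1-null mice. Leaving out C57BL/6J d17 replicate 1 raised the count of differing genes from 1 to 823.

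The other 9 genes differed between AKR/J and Cav1-null mice. Of red cell genes, the difference was 4.22 (SE 0.78, adjusted p = 0.0239) for Hbb-bs, 3.95 (SE 0.76, adjusted p = 0.0258) for Hbb-bt and 3.51 (SE 0.64, adjusted p = 0.0239) for Alas2. Reads of red cell genes took 0.251% to 0.370% of AKR/J d15 and 0.401% to 1.98% of AKR/J d17 libraries. They took 0.102% to 0.128% of C57BL/6J d15 and 0.264% to 0.362% of C57BL/6J d17 libraries. For the noncoding RNA 9130024F11Rik it was 2.36 (SE 0.35, adjusted p = 0.01297). Changes more negative in AKR/J were -1.84 (SE 0.41, adjusted p = 0.0389) for Gm37194, -1.89 (SE 0.43, adjusted p = 0.0402) for Slc16a3, a lactate exporter, -2.14 (SE 0.37, adjusted p = 0.0222) for Tcf7l1, -2.19 (SE 0.51, adjusted p = 0.0433) for the interferon-induced GTPase Irgm1 and -3.98 (SE 0.58, adjusted p = 0.01297) for Nr1h5. Irgm1 was 2.09 (1.02 to 3.07) on d15 and 1.88 (1.603 to 2.24) on d17 in AKR/J, and 0.94998 (0.837 to 1.04) on d15 and 3.87 (2.89 to 5.08) on d17 in Cav1-null mice. None of these 9 differences was called without Cav1-null d15 replicate 3, since that contrast then had no called gene, and the part of the libraries, litters or strains in them was not tested.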

How the results depend on the processing

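Between d15 and d17, 4409 genes were DE. Under other settings, each with its own calls, the count in 1 model of all 27 libraries was 2366 (1107 higher, 1259 lower), in 1 model of the 9 AKR/J libraries 1246 (658 higher, 588 lower), and with a minimum absolute log2 fold change of 1 it was 1272 (716 higher, 556 lower). With 1 library left out it ran from 1576 to 4802, with 964 to 2436 higher and 612 to 2366 lower. The lowest counts were 1576 (964 higher, 612 lower) without d17 replicate 2 and 1726 (994 higher, 732 lower) without d17 replicate 3. DESeq2 called 5313 genes and the likelihood ratio test of edgeR 4972. Replicate numbers did not pair the libraries (correlations of same-numbered deviations -0.05, -0.05 and 0.01), and a fit with the replicate number as a block called 3086 genes, 2 genes in the contrast with C57BL/6J and 63 in that with Cav1-null mice.

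The contrast with C57BL/6J, 1 gene in edgeR, held 45 genes by DESeq2, 73 by the likelihood ratio test, 4 without a filter on low counts, 0 with at least 10 reads in every library and 0 in 1 model of 27 libraries, and 1 to 823 with 1 library left out. The contrast with Cav1-null mice, 462 genes, held 1793, 1397, 1997, 811 and 0 under the same settings, and 0 to 1130 with 1 library left out. The cause was not tested. Of 243 named genes called for AKR/J, 243 kept their call by DESeq2, 242 with RLE size factors, 239 with library sizes alone, 216 with the block, 156 and 160 without d17 replicates 2 and 3, 167 in the model of 27 libraries and 132 in that of the 9 AKR/J libraries. Pdgfra (-0.62 to 0.68 with 1 library left out) and the muscle actin Acta1 (-0.81 to 1.596) turned to a rise of 0.68 and 1.596 without d15 replicate 2. With 3 libraries a day and a biological coefficient of variation of 20.41%, a gene that was not called may still have changed.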

Other observations

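Genes that escape silencing on the second X chromosome were read out beside Xist in the library labelled d15 replicate 3. Kdm6a, a histone demethylase, was at 102, 101 and 72.2 CPM on d15 and 93, 91.6 and 87.5 CPM on d17. Eif2s3x, a subunit of an initiation factor, was at 102, 97.2 and 69.6 CPM on d15 and 98.3, 86.6 and 81.3 CPM on d17. In both, d15 replicate 3 was the lowest of the 6 libraries. Kdm5c was at 139.6, 141 and 124 CPM on d15 and 108, 96.3 and 93 CPM on d17 and Ddx3x at 759.9, 766 and 708 CPM on d15 and 663, 589 and 566 CPM on d17, and in these d15 replicate 3 was the lowest of its day. Tsix, the antisense partner of Xist, had no reads in d15 replicate 3, and since no strand protocol was stated its reads cannot be told apart from those of Xist. Over 500 X-linked genes with an average log2 CPM of 1 or more, Xist and Tsix left out, the median log2 ratio of d15 replicate 3 to the geometric mean of the other d15 libraries was 0.03, against 0.04 over 14181 autosomal genes. The number of X chromosomes of that fetus was not measured.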
